A study of Mus musculus with 15 samples.

Results

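The genes described here are 37 general leukocyte and myeloid genes, taken from a given list of symbols and followed through RNA sequencing of tibialis anterior muscle, which lies along the shin. Each of the 37 symbols matched 1 of the 55416 genes in the deposited tables, of which 52083 carried a symbol. The libraries came from male C57BL/6 mice (C57BL/6NCrlOri), aged 6 to 8 weeks when tumour cells were given. Control mice received no tumour cells (n = 5 libraries), and the labels name no antibody for them. The other 3 groups carried tumours of the line KrasIKKaL, delivered into the trachea, and were injected into the abdomen with an isotype IgG (rat, n = 4), with anti-PD-L1 (200 µg per kg, 3 times a week, n = 3) or with anti-CD8a (200 µg, 3 times a week, n = 3). The same tumour line was used in each tumour group. The tumour and the antibody therefore came together in any comparison with control and cannot be told apart. Whether the libraries are separate mice is not labelled, so p-values measure the spread between these libraries.

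Skeletal muscle contains few leukocytes at rest, and most of those are macrophages that lie between the fibres and around vessels. Ptprc encodes CD45, the phosphatase on the surface of nearly every nucleated blood cell, and the transcription factor PU.1 (Spi1) drives the myeloid programme, which includes the receptor for the growth factor CSF1 (Csf1r). Many myeloid receptors signal through the small adaptors Tyrobp (DAP12) and Fcer1g, whose tyrosine motifs recruit the kinase Syk. Cd68 and Gpnmb encode glycoproteins of the lysosome that are widely used as macrophage markers, although lysosomes are found in other cells as well.

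Library totals ranged from 15894822 to 22459370 expected counts, so 3 counts correspond to 0.134 to 0.189 CPM, a count scaled to the library size. The tissue label was met: the muscle fibre genes Acta1, Ckm, Myh4, Myh1, Mylpf and Tnnt3 together held 50324 to 109968 CPM in each library. Cd8a, the target of the anti-CD8a antibody, had 0 to 4 counts per library and could not show whether the antibody had acted. Anti-CD8a replicate 3 stood apart from the other 2 libraries of its group. It held the highest level of that group for 33 of the 37 genes, and its ratio to the mean of replicates 1 and 2 had a median of 2.23 over the 37. Anti-PD-L1 replicate 1 was the highest of its group for 28 genes and replicate 2 the lowest for 28. IgG replicate 2 was the highest of its group for 20. The lowest sum of the muscle fibre genes, 50324 CPM, was also in anti-PD-L1 replicate 1, with 76964.5 and 84218.3 CPM in replicates 2 and 3.

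The promoters of 3 genes are shown because they stand for the patterns found. Laptm5 was lower in IgG than in control and higher with anti-PD-L1 than with IgG, whereas Cd68 and Gpnmb went the other way in IgG. The sequences are the 250 bases before the start site in RefSeq, build GRCm38.p6, 5′ to 3′ on the gene's strand, with GAGGAA, a core bound by PU.1, or its reverse complement in capitals.
Laptm5 (chr4:130913066-130913315, plus strand): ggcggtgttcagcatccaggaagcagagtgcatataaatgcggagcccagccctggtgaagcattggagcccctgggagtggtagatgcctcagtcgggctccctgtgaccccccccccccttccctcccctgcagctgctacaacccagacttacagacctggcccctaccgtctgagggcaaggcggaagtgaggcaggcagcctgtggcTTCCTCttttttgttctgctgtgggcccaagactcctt
Cd68 (chr11:69666171-69666420, minus strand): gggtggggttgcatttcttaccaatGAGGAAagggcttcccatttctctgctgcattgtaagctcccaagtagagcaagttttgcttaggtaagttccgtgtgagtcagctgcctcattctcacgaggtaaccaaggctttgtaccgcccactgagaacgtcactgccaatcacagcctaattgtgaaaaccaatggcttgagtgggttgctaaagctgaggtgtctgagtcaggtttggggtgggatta
Gpnmb (chr6:49036268-49036517, plus strand): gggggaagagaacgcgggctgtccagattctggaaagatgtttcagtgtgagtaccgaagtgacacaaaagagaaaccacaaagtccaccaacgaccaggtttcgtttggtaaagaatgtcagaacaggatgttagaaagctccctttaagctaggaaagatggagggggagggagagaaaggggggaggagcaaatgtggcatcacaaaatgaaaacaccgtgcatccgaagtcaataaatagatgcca
The RefSeq table had promoters for 25 of the 37 genes and not for Cd52, Itgb2, Lst1, Rac2, Spi1, Csf1r, Csf2rb, Tyrobp, Adgre1, Cd14, Cd86 and Ms4a6d. GAGGAA was found on either strand in 9 of the 25 (36.0%), namely Ptprc, Cd53, Laptm5, Rassf2, Fcgr1, Fcgr3, Trem2, Aif1 and Cd68, and in 25.85% of 27025 genes with a promoter. It was thus present in Cd68 as well as in genes of the opposite pattern, and these letters were not in the window of Gpnmb.

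Levels between genes were compared as TPM, which is scaled by transcript length. In control, Tyrobp was highest at 9.90 ± 3.50 TPM (SD, n = 5), followed by Fcer1g at 7.02 ± 1.37 and Cd52 at 5.26 ± 1.90. The ranges of these neighbours overlapped. The lowest were Fcgr1 at 0.220 ± 0.0962, Trem2 at 0.216 ± 0.103 and Cx3cr1 at 0.0900 ± 0.0274 TPM. In IgG the order changed at the top, with Cd68 first at 24.2 ± 18.1 TPM (SD, n = 4), Tyrobp at 6.30 ± 1.97 and Gpnmb next at 5.79 ± 0.442. In anti-PD-L1 the top 3 were Tyrobp at 40.0 ± 23.4 TPM (SD, n = 3), Cd52 at 24.3 ± 14.99 and Fcer1g at 23.4 ± 10.0. The ranges of neighbours overlapped in these groups as well.

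Near zero, defined as at most 3 counts in each library of a group, were Cx3cr1 and Aif1 in IgG and no other gene in any group. Cx3cr1, the receptor for fractalkine on monocytes and macrophages, had 5, 6, 6, 4 and 10 counts in control, 0 in each of the 4 IgG libraries, 2, 4 and 8 in anti-PD-L1 and 1, 2 and 4 in anti-CD8a. Its pooled counts, scaled by library size, were also set against 3 counts over the IgG group. The ratios were 7.21 in control, 4.52 in anti-PD-L1 and 2.65 in anti-CD8a. They take the counts of those groups as exact and leave out the spread between libraries, so they are not lower bounds. Aif1, which encodes the calcium-binding protein IBA1 of macrophages, had 8, 3, 3, 9 and 14 counts in control, 0, 0, 1 and 1 in IgG, 13, 8 and 19 in anti-PD-L1 and 4, 8 and 11 in anti-CD8a. Its pooled counts, scaled by library size, gave a ratio to IgG of 12.9 in control (95% counting interval 3.33 to 111) and 19.4 in anti-PD-L1 (5.03 to 166). No IgG library of either gene reached the lowest library of another group. Cx3cr1, Lst1, Fcgr1 and Trem2 were below the filter on low counts and were not tested, which left 33 of the 37 genes. Their medians over the 15 libraries were 4 counts for Cx3cr1 and 5 for each of the other 3. Lst1, a leukocyte membrane protein, had 0 to 17 counts, and Fcgr1, the high-affinity receptor for IgG, had 0 to 17, with 0, 4, 0 and 0 in IgG. Trem2, a lipid receptor of macrophages that signals through Tyrobp, had 70 counts in anti-PD-L1 replicate 1 and 1 to 7 in the other 14 libraries.

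**Figure D1:**
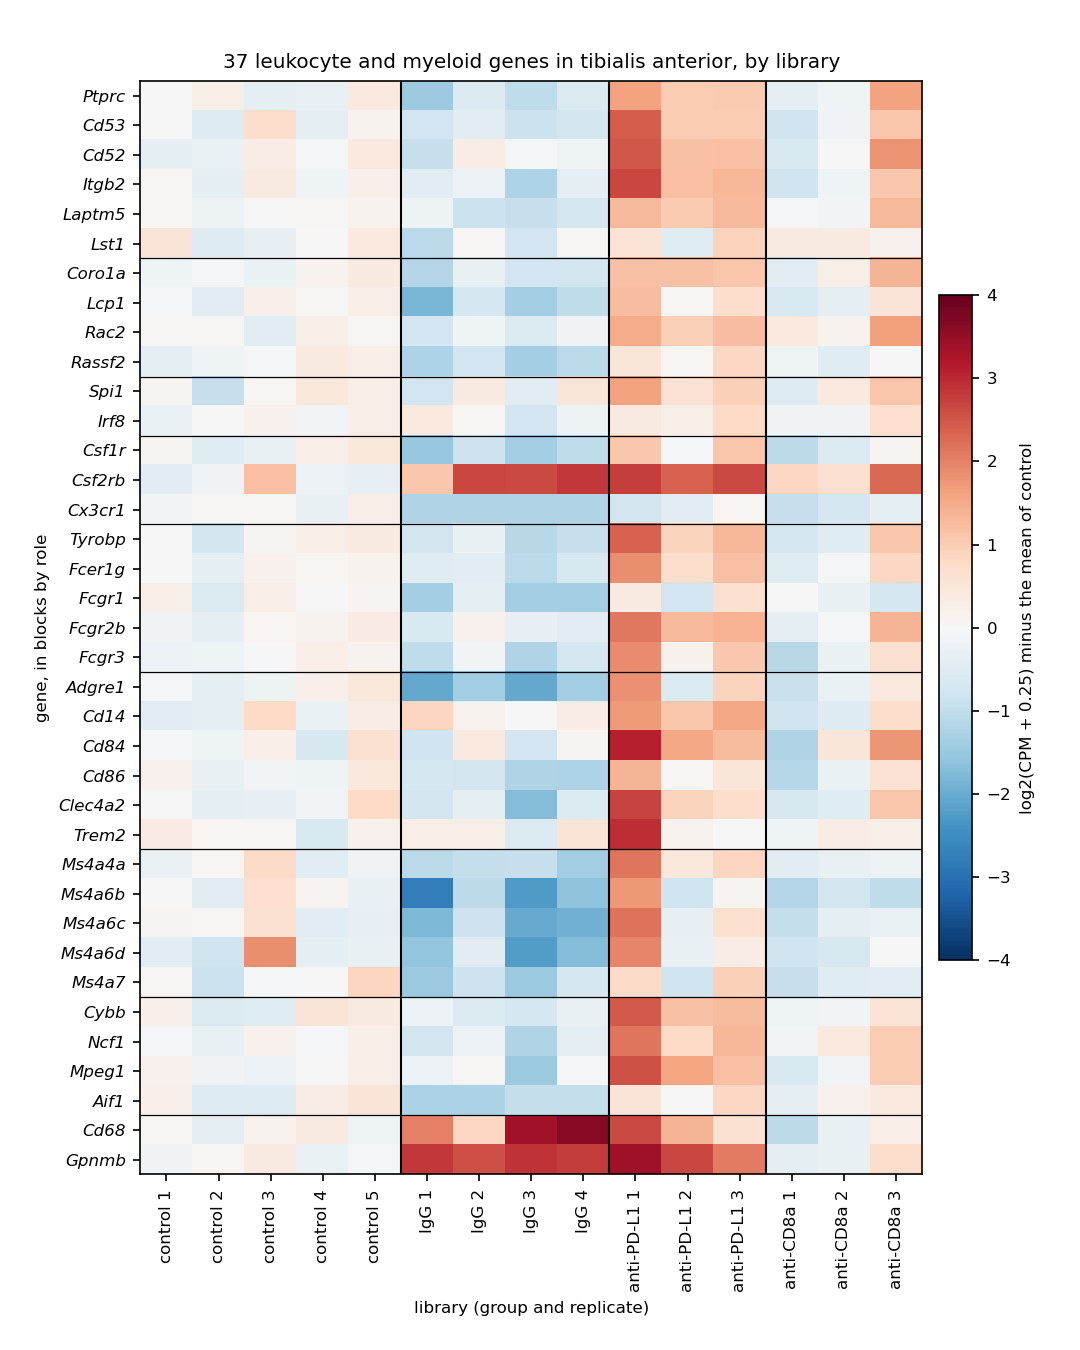
Each row is 1 of the 37 genes, in blocks by role, and each column is 1 of the 15 libraries. The colour gives log2(CPM + 0.25) minus the control mean: many rows are blue in IgG and most are red in anti-PD-L1, while Csf2rb, Cd68 and Gpnmb are red in both, and anti-CD8a replicate 3 is redder than replicates 1 and 2.

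Muscle of tumour-bearing mice given IgG had lower levels of 15 of these genes than muscle of control mice, and higher levels of 3. Of the 33 tested, 15 fell (against 28.4% of all 14372 genes tested) and 3 rose (against 30.2%), at an adjusted p under 0.05 in edgeR's quasi-likelihood test. Their median log2 fold change was -0.74, against -0.02 over all genes tested. Summed over the 37 genes the level was 82.8 to 123 CPM in control and 86.5 to 127 in IgG, so the sums overlapped, while Cd68 and Gpnmb together held 20.8 to 55.6 CPM in IgG and 4.72 to 6.27 in control. The falls were deepest in Aif1, in Adgre1 and in the Ms4a family, and the rises were in Cd68, Gpnmb and Csf2rb. In bulk RNA, fewer cells of a type and less RNA per cell cannot be told apart. The 15 became 9 when IgG replicate 3 was left out, and also 9 when IgG replicate 4 was, and the 3 rises passed in each run with a library left out.

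Anti-PD-L1 was set against IgG to see what checkpoint blockade did in tumour-bearing mice, and most of the genes were higher with it. Of the 33 tested, 26 rose, against 3.96% of all genes tested, and 0 fell, against 1.54%. Their median log2 fold change was 2.28, against 0.01 over all genes, and the sum over the 37 was 190 to 415 CPM in anti-PD-L1. At an unadjusted p under 0.05, 0 genes were lower as well, and DESeq2, fitted on all genes without this filter on low counts, called 28 higher and 0 lower. The 7 that did not pass were Spi1, Irf8, Csf2rb, Cd14, Ms4a6d, Cd68 and Gpnmb. The count was 16 without anti-PD-L1 replicate 1 and 11 in a fit of these 2 groups alone. Of the 26 calls, 6 held under each alternative: Laptm5, Coro1a, Rassf2, Csf1r, Fcer1g and Cybb. Those that held in the fewest were Cd52 and Cd86 (8 of 15), Ms4a7 (8 of 14), Cd84 and Clec4a2 (9 of 15) and Fcgr3 (10 of 15).

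Anti-CD8a was compared with IgG in the same way. Of the 33 tested, 10 rose, against 23.2% of all genes tested, and 2 fell, Cd68 and Gpnmb, against 24.8%. The share that rose was thus near that of all genes. The median log2 fold change was 1.03, against 0.02. The count of 10 rested on anti-CD8a replicate 3: without it 3 rose and 4 fell, without anti-CD8a replicate 1 it was 18, and with upper-quartile normalization 17.

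Compared directly, anti-PD-L1 exceeded anti-CD8a in 15 of the 33 (against 12.1% of all genes tested) and fell below it in 0 (against 7.64%; DESeq2 also called 0, with 16 higher). This count was 25 without anti-CD8a replicate 3, 2 and 3 without anti-CD8a replicates 1 and 2, 3 without anti-PD-L1 replicate 1, and 4 in a fit of these 2 groups alone. Against control, 23 genes were higher in anti-PD-L1 (against 20.8% of all genes) and 0 were lower (against 13.9%; DESeq2 also 23 and 0), and 13 were higher without anti-PD-L1 replicate 1. Against control, 0 of the 33 passed in anti-CD8a, where 0.00696% of all genes were called higher and 0.00696% lower. DESeq2 also called 0 of them, and 2 of the 33 had an unadjusted p under 0.05 in edgeR. Comparisons that share a group share its libraries, so their counts are not independent of each other.

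**Figure D2:**
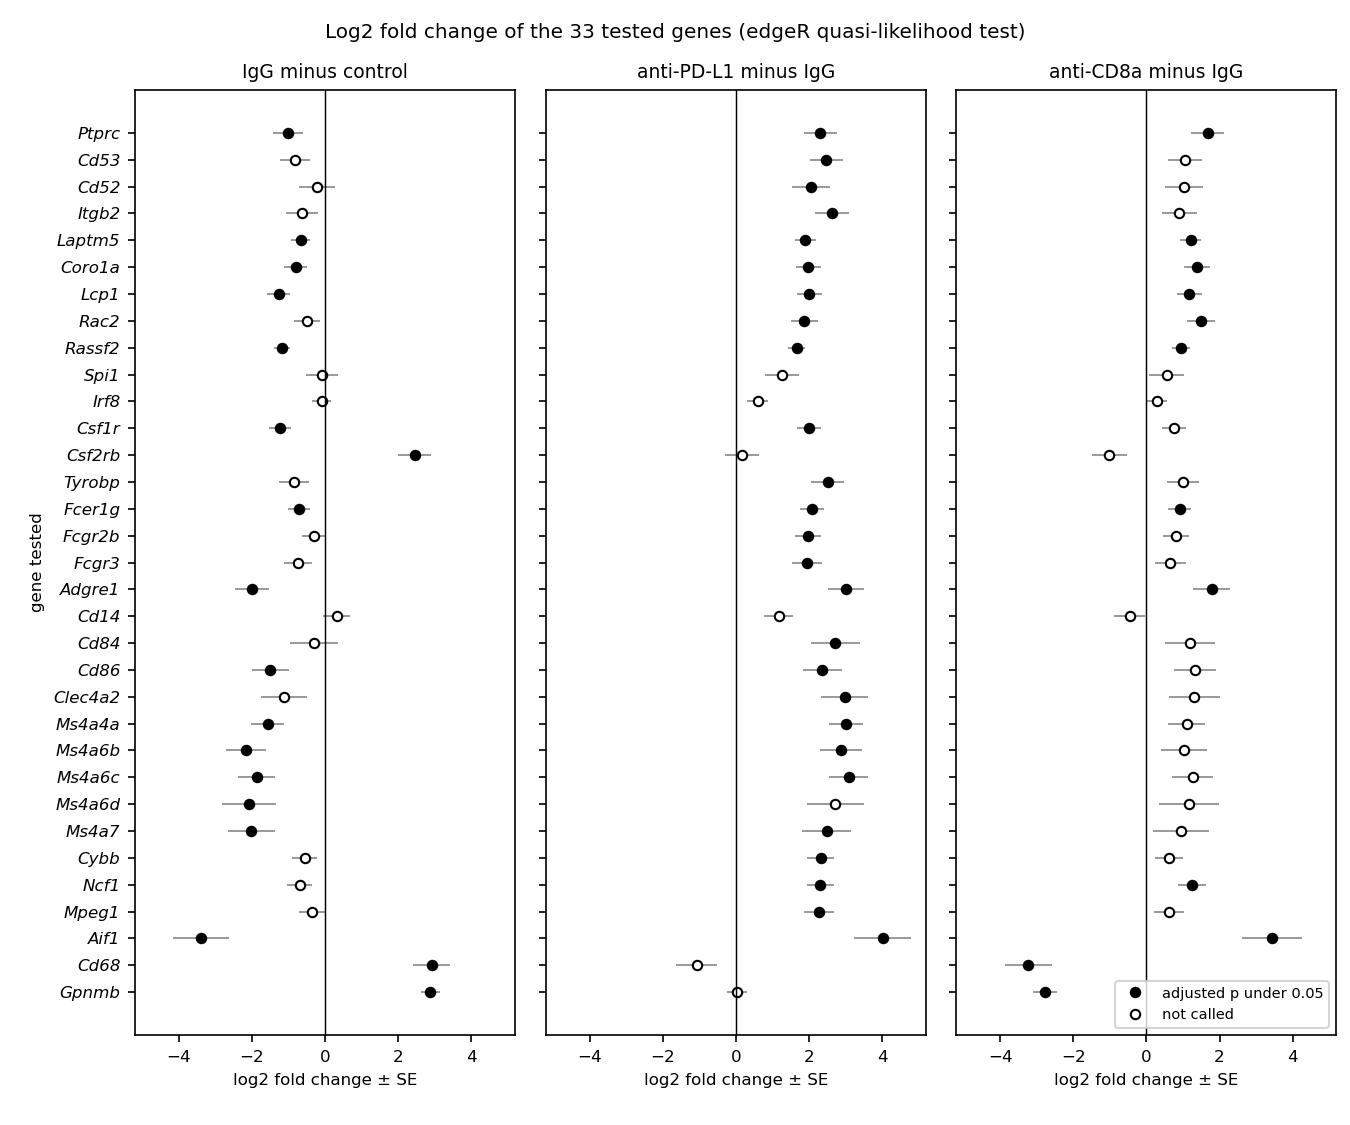
Points are log2 fold changes with standard errors of the 33 tested genes, one panel per comparison, filled where the adjusted p was under 0.05. In the middle panel 26 points are filled and lie right of 0, while Cd68 and Gpnmb lie right of 0 in the left panel and left of 0 in the right panel.

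Among pan-leukocyte surface proteins, Ptprc had 41, 47, 30, 34 and 70 counts in control, 11, 25, 16 and 24 in IgG, 158, 115 and 114 in anti-PD-L1 and 31, 37 and 151 in anti-CD8a. Each IgG library was below each control library in CPM, and each anti-PD-L1 library was above both groups. It fell from 2.35 ± 0.597 CPM (SD, n = 5) in control to 1.17 ± 0.393 (SD, n = 4) in IgG, a log2 fold change of -1.01 ± 0.42 (SE, edgeR adjusted p = 0.0479), and stood at 5.82 ± 1.48 CPM (SD, n = 3) in anti-PD-L1, 2.31 ± 0.45 above IgG (adjusted p = 0.0113). The fall lost its call under 8 of 17 alternatives, with adjusted p values of 0.0102 to 0.132. Itgb2, the beta chain of the leukocyte integrins, had 33, 22, 41, 29 and 47 counts in control, 20, 25, 10 and 22 in IgG, 267, 105 and 111 in anti-PD-L1 and 17, 29 and 83 in anti-CD8a. Control and IgG overlapped, and the anti-PD-L1 libraries lay above each of the other 12. Its log2 fold change was 2.63 ± 0.47 in anti-PD-L1 against IgG (adjusted p = 0.00729) and 1.998 ± 0.42 against control (adjusted p = 0.0021). The tetraspanin Cd53, the small glycoprotein Cd52 and the lysosomal membrane protein Laptm5 rose in anti-PD-L1 against IgG too, by 2.47, 2.06 and 1.90, and Laptm5 fell in IgG by 0.67 on the log2 scale, a call that held in 9 of 17 alternatives (edgeR adjusted p up to 0.106).

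The leukocyte cytoskeleton and signalling genes Coro1a, Lcp1, Rac2 and Rassf2 rose in 4 of 4 cases in anti-PD-L1 against IgG and in 4 of 4 in anti-CD8a against IgG, the latter at log2 fold changes of 0.95 to 1.49. Of all genes tested, 3.96% rose in the first of these comparisons and 23.2% in the second. Without anti-CD8a replicate 3, Coro1a, Lcp1 and Rac2 no longer passed in the second (edgeR adjusted p = 0.0505, 0.0904 and 0.0549), and Rassf2 did. Coro1a, an actin-binding protein of leukocytes, had 53, 56, 48, 70 and 99 counts in control, 22, 45, 30 and 32 in IgG, 166, 187 and 174 in anti-PD-L1 and 44, 76 and 183 in anti-CD8a. The anti-PD-L1 libraries lay close together, at 7.86 ± 0.186 CPM (SD, n = 3), and anti-CD8a replicate 3 lay above them while replicate 1 lay within the IgG range. Rac2, a GTPase of blood cells that also serves the phagocyte oxidase, had 23, 22, 15, 28 and 30 counts in control, 10, 18, 12 and 18 in IgG, 82, 61 and 75 in anti-PD-L1 and 31, 26 and 90 in anti-CD8a. It was 1.49 ± 0.38 higher in anti-CD8a than in IgG (edgeR adjusted p = 0.00422), where the groups did not overlap, and 1.87 ± 0.37 higher in anti-PD-L1 (adjusted p = 0.0134). Lcp1, which bundles actin, and Rassf2, a Ras-binding protein, both fell in IgG against control, by 1.27 and 1.18 on the log2 scale.

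Neither transcription factor passed in a comparison with IgG. Spi1 had 22, 8, 21, 30 and 31 counts in control, 9, 25, 12 and 27 in IgG, 82, 42 and 54 in anti-PD-L1 and 13, 29 and 54 in anti-CD8a. Control and IgG overlapped (-0.09 ± 0.44, edgeR adjusted p = 0.877), although Csf1r and Adgre1 fell there. The anti-PD-L1 libraries lay above each IgG library, but the log2 fold change of 1.26 ± 0.47 did not pass (adjusted p = 0.105), while that against control did (1.17 ± 0.43, adjusted p = 0.0463). Irf8, a factor of monocyte and dendritic cell development, stood at 3.34 ± 0.518 CPM in control, 3.13 ± 1.09 in IgG, 4.74 ± 1.06 in anti-PD-L1 and 3.80 ± 1.43 in anti-CD8a, and passed in none of the 6 comparisons. It shares its locus with the annotated gene Gm20388, and RSEM gave Irf8 a count that was not whole in 0 of 15 libraries. How reads of this locus were assigned was not tested. Coro1a, Ncf1 and Csf1r overlap Bola2, Gtf2ird2 and Hmgxb3 on the opposite strand in GENCODE M21 (GRCm38). Whether strand was used in counting is not given in the sources used here, so reads of these pairs may not be told apart. Csf1r had a count that was not whole in each of the 15 libraries, and Coro1a and Ncf1 in 0.

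The growth factor receptors Csf1r and Csf2rb went opposite ways in IgG. Csf1r had 251, 159, 184, 290 and 395 counts in control, 71, 120, 77 and 105 in IgG, 584, 293 and 652 in anti-PD-L1 and 113, 161 and 289 in anti-CD8a. It fell from 13.5 ± 3.45 to 5.72 ± 1.32 CPM in IgG without overlap (-1.23 ± 0.29, edgeR adjusted p = 0.00196) and rose to 23.0 ± 9.07 CPM in anti-PD-L1 (2.01 ± 0.32, adjusted p = 0.00484). Csf2rb, the shared chain of the receptors for GM-CSF, IL-3 and IL-5, had 20, 25, 71, 25 and 28 counts in control, 60, 197, 183 and 216 in IgG, 268, 223 and 262 in anti-PD-L1 and 57, 51 and 184 in anti-CD8a. It rose from 1.86 ± 1.25 to 10.1 ± 4.30 CPM in IgG (2.45 ± 0.45, adjusted p = 0.000242), with IgG replicate 1 within the control range, and did not differ past the threshold between anti-PD-L1 and IgG (0.16 ± 0.47, adjusted p = 0.851). Its close copy Csf2rb2 moved the same way, from 2.08 to 8.25 CPM in IgG (1.998 ± 0.47, adjusted p = 0.00196). RSEM gave Csf2rb a count that was not whole in 11 of 15 libraries, so reads could be divided between the copies. Of the ligands, Csf1 fell in IgG from 8.34 to 4.89 CPM (-0.77 ± 0.24) and Il34 from 3.84 to 1.95 CPM (-0.98 ± 0.27). Neither passed between anti-PD-L1 and IgG, and Csf2, the gene of GM-CSF, had at most 1 count per library.

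Tyrobp had 71, 39, 75, 90 and 118 counts in control, 37, 53, 27 and 33 in IgG, 451, 178 and 236 in anti-PD-L1 and 43, 52 and 175 in anti-CD8a. Control and IgG overlapped at 1 end and did not differ past the threshold (-0.85 ± 0.41, edgeR adjusted p = 0.0836), and the anti-PD-L1 libraries lay above both. Against IgG its log2 fold change was 2.51 ± 0.44 (adjusted p = 0.00727). The partner adaptor Fcer1g fell in IgG by 0.71 on the log2 scale (adjusted p = 0.049, a call that held in 8 of 17 alternatives, with adjusted p up to 0.137) and rose in anti-PD-L1 by 2.08 ± 0.32 (adjusted p = 0.00484). The Fc receptor genes Fcgr2b, the inhibitory receptor, and Fcgr3, an activating one, did not pass in IgG against control, at -0.30 and -0.74, and rose in anti-PD-L1 against IgG, by 1.97 and 1.96. These 4 adaptor and receptor genes also passed in 4 of 4 cases between anti-PD-L1 and anti-CD8a, at 1.15 to 1.51, against 12.1% of all genes tested. These calls held in 9 of 14 alternatives for Tyrobp and Fcer1g, 7 for Fcgr2b and 6 for Fcgr3, and all 4 were lost without anti-PD-L1 replicate 1, anti-CD8a replicate 1 or anti-CD8a replicate 2. Of 10 tested genes of the signalling chain below them, 4 fell in IgG (against 28.4% of all genes tested) and 7 rose in anti-PD-L1 against IgG (against 3.96%), with Syk at 2.38 CPM in IgG against 3.80 in control and 6.04 in anti-PD-L1, and the inhibitory receptor Pirb at 0.933, 2.24 and 4.51.

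Other macrophage surface receptors included Adgre1, the F4/80 antigen, with 2.97, 2.30, 2.703, 3.62 and 4.37 CPM in control, 0.559, 1.02, 0.567 and 1.04 in IgG, 11.6, 2.01 and 5.98 in anti-PD-L1 and 1.58, 2.52 and 4.16 in anti-CD8a. Each IgG library lay below each library of the other groups. It fell by 1.996 on the log2 scale in IgG (SE 0.46, edgeR adjusted p = 0.00165), rose by 3.02 ± 0.49 in anti-PD-L1 (adjusted p = 0.00512) and by 1.78 ± 0.51 in anti-CD8a (adjusted p = 0.009). Anti-PD-L1 and control overlapped for this gene and did not differ past the threshold (1.02 ± 0.41, adjusted p = 0.0649). Cd84, a homotypic adhesion receptor of leukocytes, had 14, 12, 18, 8 and 31 counts in control, 6, 19, 6 and 15 in IgG, 188, 67 and 53 in anti-PD-L1 and 4, 23 and 68 in anti-CD8a. Control and IgG overlapped, and the anti-PD-L1 range of 2.33 to 8.96 CPM lay above both. Its log2 fold change in anti-PD-L1 was 2.42 ± 0.60 above control (edgeR adjusted p = 0.0062) and that of IgG against control was -0.31 ± 0.65 (adjusted p = 0.701). The costimulator Cd86 fell in IgG (-1.50, adjusted p = 0.0196) and the lectin Clec4a2 did not pass (-1.12, adjusted p = 0.137), and both rose in anti-PD-L1, by 2.37 and 2.98. Cd14, the coreceptor for lipopolysaccharide, stood at 1.91 ± 0.872 CPM in control, 2.39 ± 0.747 in IgG, 5.39 ± 1.12 in anti-PD-L1 and 1.73 ± 1.17 in anti-CD8a, and passed against control and anti-CD8a but not against IgG (1.17 ± 0.39, adjusted p = 0.0797).

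The Ms4a genes, a cluster that encodes membrane proteins spanning the membrane several times, fell in IgG in 5 of 5 cases, at log2 fold changes of -2.17 to -1.57, where 28.4% of all genes tested fell. The calls of Ms4a4a, Ms4a6b and Ms4a6c held in each of 17 alternatives and that of Ms4a7 in 15 of 16. The call of Ms4a6d held in 12 of 17 and was lost without control replicate 3 (-1.16, edgeR adjusted p = 0.101) and without IgG replicate 1, 3 or 4. Ms4a6b had 48, 33, 78, 55 and 49 counts in control, 3, 20, 6 and 12 in IgG, 202, 34 and 68 in anti-PD-L1 and 20, 29 and 25 in anti-CD8a. Ms4a6c had 3.03, 2.89, 4.43, 1.95 and 2.18 CPM in control, 0.621, 1.44, 0.504 and 0.550 in IgG, 13.4, 2.19 and 4.49 in anti-PD-L1 and 1.31, 2.09 and 2.28 in anti-CD8a. For both, the IgG libraries lay below each control library, and anti-PD-L1 replicate 1 was far above replicates 2 and 3. Ms4a4a had 15, 19, 34, 13 and 21 counts in control, 6, 7, 7 and 4 in IgG, 116, 35 and 48 in anti-PD-L1 and 13, 15 and 18 in anti-CD8a. Ms4a6d had 23, 16, 124, 25 and 32 counts in control, where replicate 3 stood alone, 7, 21, 3 and 6 in IgG, 161, 33 and 52 in anti-PD-L1 and 17, 20 and 37 in anti-CD8a. Ms4a7 had 12, 4, 10, 12 and 30 counts in control, 1, 4, 1 and 5 in IgG, 26, 6 and 33 in anti-PD-L1 and 4, 7 and 8 in anti-CD8a. Ms4a4a was lower in each IgG library than in each control library, and Ms4a7 overlapped between these groups. Against IgG, anti-PD-L1 was higher for Ms4a4a (3.02 ± 0.47), Ms4a6b (2.88 ± 0.58), Ms4a6c (3.08 ± 0.53) and Ms4a7 (2.49 ± 0.67), while Ms4a6d missed the threshold (2.72 ± 0.78, edgeR adjusted p = 0.0511). None of the 5 passed between anti-CD8a and IgG, at 0.94 to 1.27, where edgeR's unadjusted p was under 0.05 for 2 of them and DESeq2 called 1. The Ms4a6 genes are close copies. Ms4a6c had counts that were not whole in each of the 15 libraries, and Ms4a6b and Ms4a6d in 0. Ms4a6c also overlaps BE692007 on the opposite strand, which had 1 to 32 counts. The source of the divided reads was not tested.

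Of the phagocyte effector genes, Aif1 is described above. Cybb, the catalytic subunit of the phagocyte oxidase, Ncf1, its cytosolic organiser, and Mpeg1, a pore-forming protein of macrophages, did not pass between IgG and control, at -0.56 ± 0.34, -0.70 ± 0.35 and -0.35 ± 0.37. In anti-PD-L1 they rose against IgG, by 2.32 ± 0.36, 2.32 ± 0.37 and 2.28 ± 0.40, and against control, by 1.77, 1.62 and 1.93. Cybb had 33, 26, 23 and 32 counts in IgG and 304, 135 and 141 in anti-PD-L1, without overlap, and its rise passed under each of the 15 alternatives tried. Of the other oxidase genes, Cyba and Ncf4 fell in IgG against control, at -0.81 and -2.75, and rose in anti-PD-L1 against IgG, at 1.75 and 2.79, and the widely expressed GTPase Rac1 rose in IgG, from 163 to 255 CPM.

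**Figure D3:**
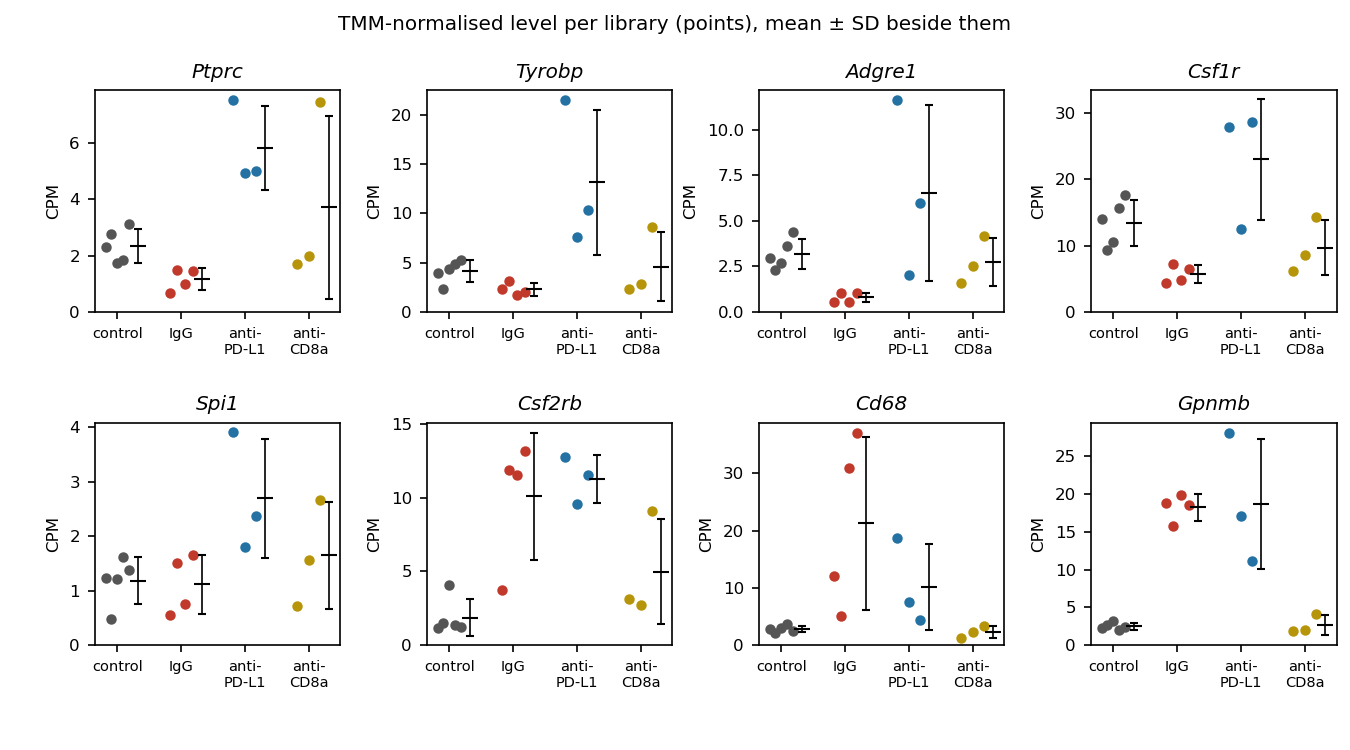
Points are the TMM-normalised CPM of 8 genes in each library, with the mean and SD of each group beside them. Ptprc, Adgre1 and Csf1r are lowest in IgG, Spi1 overlaps between control and IgG, and Csf2rb, Cd68 and Gpnmb are high in IgG and anti-PD-L1.

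The lysosomal glycoproteins Gpnmb and Cd68 rose in IgG, where 15 of the genes fell. Gpnmb had 39, 44, 56, 37 and 53 counts in control, 304, 261, 315 and 304 in IgG, 589, 398 and 252 in anti-PD-L1 and 33, 36 and 84 in anti-CD8a. The IgG libraries were close together at 18.2 ± 1.78 CPM, well above control at 2.47 ± 0.472, a log2 fold change of 2.88 ± 0.27 (edgeR adjusted p = 1.06e-06). In anti-CD8a it was lower than in IgG (-2.78 ± 0.33, adjusted p = 2.21e-05) and between anti-PD-L1 and IgG the difference did not pass (0.04 ± 0.28, adjusted p = 0.948). The call in IgG held under each of 17 alternatives and that in anti-CD8a under each of 15. Cd68 had 51, 36, 53, 67 and 54 counts in control, 194, 85, 491 and 606 in IgG, 391, 175 and 98 in anti-PD-L1 and 22, 41 and 68 in anti-CD8a. It rose from 2.81 ± 0.582 to 21.3 ± 15.1 CPM in IgG (2.92 ± 0.51, adjusted p = 0.000165), did not pass between anti-PD-L1 and IgG (-1.07 ± 0.55, adjusted p = 0.224) and was lower in anti-CD8a than in IgG (-3.23 ± 0.63, adjusted p = 0.000745). The IgG libraries spread widely, with replicate 2 the lowest, and none overlapped control.

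Relative to Ptprc, the 2 genes were highest in IgG. Ptprc itself was lower in IgG than in control and higher in anti-PD-L1, so the ratios carry its changes too. Gpnmb alone had a mean of 18.2 CPM in IgG and 18.7 in anti-PD-L1, and Ptprc 1.17 and 5.82. Cd68 had 0.766 to 1.97 counts per Ptprc count across control libraries, 3.40 to 30.7 with IgG, 0.860 to 2.47 with anti-PD-L1 and 0.450 to 1.11 with anti-CD8a. For Gpnmb the ratios were 0.757 to 1.87 across control libraries, 10.4 to 27.6 with IgG, 2.21 to 3.73 with anti-PD-L1 and 0.556 to 1.06 with anti-CD8a. The IgG libraries lay above each of the other 11 for both ratios. The ratios in anti-PD-L1 overlapped control for Cd68 and not for Gpnmb, and those in anti-CD8a overlapped control for both.

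**Figure D4:**
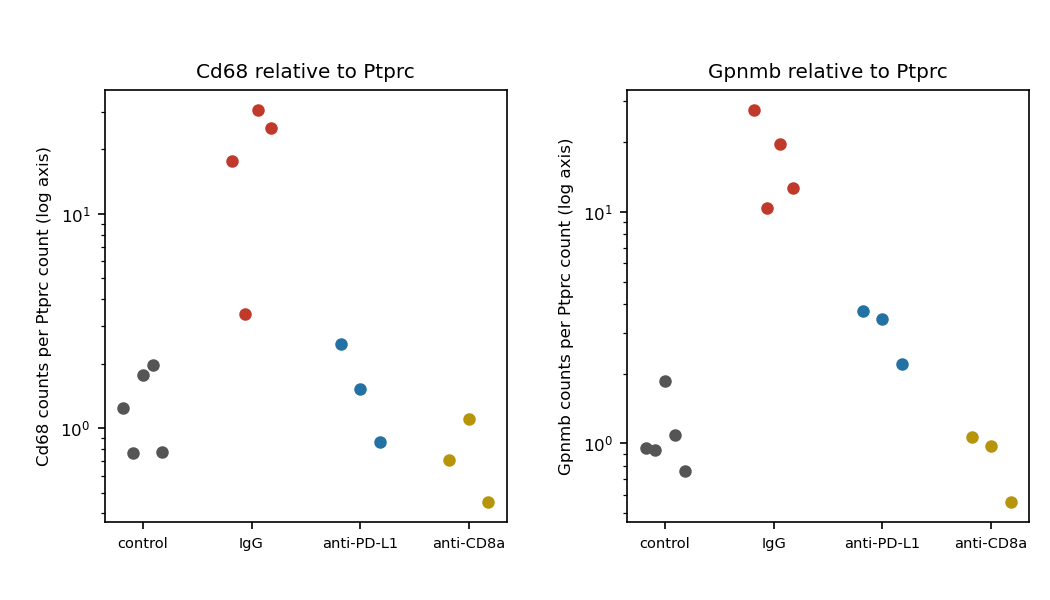
Points are Cd68 counts (left) and Gpnmb counts (right) per Ptprc count in each library, on a log axis. The 4 IgG libraries are highest in both panels, at 3.40 to 30.7 for Cd68 and 10.4 to 27.6 for Gpnmb.

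Of a list of lysosomal genes and their MiT/TFE regulators, most rose in IgG, as Cd68 and Gpnmb did. In IgG against control 30.2% of all genes tested rose, and in anti-CD8a against IgG 24.8% fell. Of the 16 listed genes tested, 11 rose and 0 fell in IgG against control (DESeq2 also 11 and 0), 0 rose and 9 fell in anti-CD8a against IgG, and 0 passed between anti-PD-L1 and IgG, where edgeR gave 3 higher and 4 lower at an unadjusted p under 0.05 and DESeq2 called 1 higher and 2 lower. The proton pump subunit Atp6v1h rose from 14.96 to 86.7 CPM in IgG (2.53 ± 0.24), the transcription factor Mitf from 12.3 to 31.5 CPM (1.36 ± 0.15), and Ctsl, the protease Cathepsin L, from 80.2 to 381 CPM (2.25 ± 0.24). Mitf and Atp6v1h were lower in anti-CD8a than in IgG, at 12.4 and 19.3 CPM. Eif4a1, a translation initiation factor that GENCODE M21 (GRCm38) places within 1 kb upstream of Cd68 on the same strand, also rose in IgG, from 87.0 to 309 CPM (1.83 ± 0.17), and stood at 101 CPM in anti-CD8a. Cd68 had 2.33 to 4.31 counts per 100 Eif4a1 counts across control libraries, 2.30 to 9.62 with IgG, 2.57 to 11.9 with anti-PD-L1 and 1.21 to 3.45 with anti-CD8a. The part of reads from that neighbour in the Cd68 counts was not tested.

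Markers of other cell types were examined beside these genes. Of all genes tested, 30.2% rose and 28.4% fell in IgG against control and 3.96% rose in anti-PD-L1 against IgG, so counts such as 1 of 4 or 2 of 5 in IgG are near that background. All 8 tested genes of tissue-resident macrophages (Folr2, Lyve1, Mrc1, Cd163, C1qa, C1qb, C1qc and Pf4) fell in IgG and rose in anti-PD-L1, with a summed level of 62.0 to 102 CPM across control libraries, 23.3 to 42.5 with IgG, 124 to 233 with anti-PD-L1 and 46.7 to 90.5 with anti-CD8a. Of 4 tested inflammatory monocyte genes 1 rose in IgG and 3 rose in anti-PD-L1 against IgG, and their sum was 4.49 to 6.87 CPM across control libraries, 2.54 to 9.77 with IgG, 18.6 to 49.6 with anti-PD-L1 and 4.90 to 21.3 with anti-CD8a. Ccr2, the receptor that brings monocytes into tissue, had 387 counts in anti-CD8a replicate 3 against 62 and 114 in replicates 1 and 2. Of 4 tested neutrophil genes 3 rose in IgG and 2 in anti-PD-L1, with sums of 0.354 to 4.49 CPM across control libraries, 3.23 to 10.5 with IgG, 12.0 to 51.4 with anti-PD-L1 and 2.83 to 9.26 with anti-CD8a, while the defining marker Ly6g was at 0 in control and IgG. The sums in anti-PD-L1 replicates 1, 2 and 3 were 30.6, 51.4 and 12.0 CPM, and the neutrophil gene Mpo had 1, 29 and 0 counts. Mast cell genes fell in 4 of 5 cases in IgG, with sums of 6.78 to 21.3 CPM in control and 2.27 to 7.22 in IgG. Of the same 5, 2 rose in anti-PD-L1 against IgG, where the sum was 11.5 to 17.9 CPM, against 6.86 to 8.86 in anti-CD8a. The part of each cell type in the changes of the 37 genes was not tested.

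T cell and natural killer genes were near the limit of detection. The T cell list summed to 1.298 to 1.95 CPM across control libraries, 0.0630 to 0.602 with IgG, 1.14 to 4.24 with anti-PD-L1 and 0.980 to 2.28 with anti-CD8a, with Cd3d at 0 in IgG and in anti-CD8a. Of its 8 genes, 2 could be tested, and Cd3e fell in IgG while Cd2 rose in anti-PD-L1 against IgG. Both rose in anti-CD8a against IgG, and between anti-PD-L1 and control Cd3e was lower and Cd2 higher. The T cell sums in anti-PD-L1 replicates 1, 2 and 3 were 1.14, 4.24 and 1.32 CPM. In the same libraries Cd3e had 0, 8 and 0 counts and the B cell gene Cd79b had 2, 39 and 1. Natural killer genes reached at most 0.648 CPM in any library and none could be tested. In the B cell list Ighm alone could be tested, which fell in IgG, and the list summed to 40.4 to 55.1 CPM across control libraries, 1.80 to 22.0 with IgG, 2.15 to 16.2 with anti-PD-L1 and 12.4 to 55.7 with anti-CD8a. Red blood cell genes rose in IgG in 5 of 5 cases and summed to 386 to 2677 CPM there, against 302 to 582 in control, 60.6 to 1080 with anti-PD-L1 and 440 to 759 with anti-CD8a. Among the dendritic cell genes 2 of 5 tested fell in IgG and 2 rose in anti-PD-L1, with Itgax, an integrin chain also found on activated macrophages, at 0.137 CPM in IgG and 1.53 in anti-PD-L1. The dendritic cell sum was 8.24 to 12.7 CPM across control libraries, 4.66 to 8.67 with IgG, 7.63 to 10.9 with anti-PD-L1 and 7.68 to 15.1 with anti-CD8a. Fibroblast genes fell in IgG in 4 of 5 cases, with the collagen gene Col1a1 at 101 CPM in control and 3.44 in IgG, and the list summed to 939 to 1302 CPM across control libraries, 493 to 685 with IgG, 1022 to 1285 with anti-PD-L1 and 715 to 835 with anti-CD8a. Although the sums of anti-PD-L1 and control overlapped, 3 of the 5 genes were lower in anti-PD-L1 than in control and 1 was higher. Of all genes tested, 13.9% were lower and 20.8% higher there. The log2 fold changes of the 5 ranged from -3.66 to 0.74. Of 4 tested epithelial genes 2 rose in IgG, and the sums were 1.41 to 2.82 CPM across control libraries, 1.20 to 15.7 with IgG, 0.572 to 8.05 with anti-PD-L1 and 0.429 to 1.44 with anti-CD8a. Of 5 endothelial genes 1 rose and 2 fell in IgG, and the sums overlapped between the groups, from 110 to 241 CPM over the 15 libraries.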

How the data were processed

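Bulk RNA was sequenced from 15 tibialis anterior libraries of 4 groups. The submitters' processing notes name Trim Galore, STAR 2.7.9a and RSEM 1.3.3, and the genome build and annotation are not given in the sources used here. Per the file headers, the deposited tables hold RSEM expected counts and TPM per gene, with no further normalization of the counts stated. Expected counts were rounded to whole numbers and gene IDs were matched to symbols. Genes were filtered with filterByExpr (14372 kept), scaled by TMM and tested in 1 fit of the 4 groups with edgeR 4.0.16 (R 4.3.3) by its quasi-likelihood test (residual degrees of freedom 11), and p-values were adjusted over all genes tested by the Benjamini-Hochberg method. A call is an adjusted p under 0.05. The fit was also run on simulated data in which a small share of genes changed in 1 group. It was not tested on data where as many genes change as in IgG against control. Values after ± are SDs for levels and standard errors for log2 fold changes. CPM are TMM-normalised. Counting intervals are 95% and cover counting error only.

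The members and lists were chosen with earlier results of these data known. Values in each library are given for Ptprc, Tyrobp, Adgre1, Csf1r, Cd68, Gpnmb, Spi1 and Cx3cr1, and in each comparison for up to 4 called genes per direction of largest change with a mean of at least 0.5 CPM in the higher group. Other genes named with such values were chosen after their values were seen. The alternatives were RLE and upper-quartile scaling, no filter, unrounded counts, a replicate block, fits of 2 groups, DESeq2 1.42.0 and leaving out libraries. Promoters came from RefSeq (GRCm38.p6). The result of 1 gene on a list is not reported here.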

Additional observations from a re-analysis of the deposited data

Results flagged for a closer look

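Of 74 sets of values, 1 gene in the control or the IgG group each, 5 held a library far from the others of its group, where chance gives about 1 in 20. Csf2rb was at 4.08 CPM in control replicate 3, with the other 4 at 1.12 to 1.47. Ms4a6d was at 7.13 CPM in the same library, with the others at 0.943 to 1.43. Clec4a2 was at 1.92 CPM in control replicate 5, against 0.707 to 1.01. Ms4a6c was at 1.44 CPM in IgG replicate 2, against 0.504 to 0.621, and Fcgr1 at 0.241 CPM in the same library, against 0 in the other 3. The groups of 3 libraries were not examined in this way.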

How the results depend on the processing

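The count of 3 genes higher in IgG than in control was 3 under each alternative run, and no gene became lower in anti-PD-L1 than in IgG, control or anti-CD8a under any. With libraries left out, 9 to 16 genes were lower in IgG than in control, 16 to 30 higher with anti-PD-L1 than with IgG, 3 to 18 higher and 2 to 4 lower in anti-CD8a than in IgG, 2 to 25 higher in anti-PD-L1 than in anti-CD8a, and 13 to 27 higher in anti-PD-L1 than in control. Calls held under each alternative for 11 of 18 genes in IgG against control, 6 of 26 in anti-PD-L1 and 5 of 12 in anti-CD8a against IgG, 2 of 15 between the antibodies and 13 of 23 in anti-PD-L1 against control. The number higher in anti-CD8a than in IgG was 17 with upper-quartile scaling, which moved the median of all genes to -0.27 in IgG against control, 0.12 in anti-PD-L1 and 0.25 in anti-CD8a against IgG. It was 16 without a filter and 17 with replicate 2 of both IgG and anti-PD-L1 left out. Fits of 2 groups gave 11 genes higher with anti-PD-L1 than with IgG and 4 higher than in anti-CD8a. At a limit of 10 counts, 8 genes were near zero. The causes were not tested.

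Replicate numbers did not pair the libraries: 3 of 19 same-numbered pairs correlated above 0.1 (-0.364 to 0.202). Each library was also checked against each other group that held its number, and in 8 of 38 such checks it correlated best with that number. A replicate block gave 8 genes lower in IgG than in control, 11 higher with anti-PD-L1 than with IgG and 6 higher than in anti-CD8a.

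Some log2 fold changes, none of them called, changed sign. With libraries left out, the ranges were as follows. For IgG against control they were Spi1 -0.33 to 0.12 and Irf8 -0.31 to 0.10. For anti-PD-L1 against IgG they were Csf2rb -0.10 to 0.36 and Gpnmb -0.37 to 0.31. For anti-CD8a against IgG they were Cd52 -0.11 to 1.45 and Irf8 -0.055 to 0.51. For anti-PD-L1 against control they were Ms4a6b -0.36 to 1.15 and Ms4a6d -0.38 to 1.58. For anti-CD8a against control they were Ptprc -0.35 to 1.01, Spi1 -0.059 to 0.83, Tyrobp -0.68 to 0.46, Adgre1 -0.63 to 0.064 and Gpnmb -0.39 to 0.31. With the replicate block the value was 0.0069 for Spi1 (IgG against control), 0.00029 for Irf8 (IgG against control), 0.074 for Adgre1 (anti-CD8a against control). With RLE normalization the value was -0.0036 for Gpnmb (anti-PD-L1 against IgG). With DESeq2 the value was -0.0023 for Gpnmb (anti-PD-L1 against IgG).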
